A study of Mus musculus with 5 samples.

Results

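The cadherins and protocadherins are cell surface proteins whose repeated outer domains bind calcium and hold neighbouring cells together. They were chosen by gene name, as Cdh followed by a number only or as a name that starts with Pcdh and ends in a number, and 87 of the 28666 listed genes met this rule. They comprised 21 cadherins, 11 non-clustered protocadherins and 55 clustered protocadherins, of which 12 were alpha, 22 beta and 21 gamma genes. Each of the 87 had at least 1 count in at least 1 library, 60 had enough counts to be tested, and 27 did not and are named without a test.

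The data are RNA-seq counts of whole uteri from ICR females aged 6 to 8 weeks that were mated with vasectomized C57BL/6 males, so that seminal plasma (SP) without sperm reached the uterus. In the aged-SP group the male was aged (2 libraries, replicates 1 and 4), and in the young-SP group it was young (3 libraries, replicates 1, 2 and 4). The labels place the collection of the uteri at day 3.5 after caging and the methods of the study at 3.0 dpc, and the study left out a further young-SP sample that stood apart in its clustering. No unmated uterus was among these libraries, so only the 2 groups could be compared. The methods count the ages of the young males in weeks and those of the aged males in months. All females were young and no transgene or drug is named, and the labels do not say whether the females of a group shared a male, so the p-values measure the spread between these libraries only.

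Classical cadherins join cells to cells of the same kind, and their inner tails bind β-catenin or plakoglobin (Jup) and p120-catenin, which tie them to the actin skeleton through α-catenin. Type I members such as E-cadherin (Cdh1) mark epithelia and others such as N-cadherin (Cdh2) mark neural and mesenchymal cells, whereas type II members include VE-cadherin (Cdh5) of endothelial junctions and Cdh11 of fibroblast-like cells. In the uterus before implantation, E-cadherin holds the luminal and glandular epithelium together, and its junctions are remodelled as the epithelium becomes receptive. Clustered protocadherins are best known from neurons, where each cell switches on a few of them by choosing among their promoters with the help of CTCF and cohesin. The alpha and the gamma genes each splice their own first exon to shared last exons, while each beta gene is a single exon of its own.

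Between 15071914 and 16728601 counts were deposited per library. Levels in CPM are counts scaled by the library size after TMM normalization and compare 1 gene between libraries, while FPKM, which also divides by gene length, compares genes with each other. Within a group, a typical gene varied between females by 25.1% of its mean once counting error was set aside. Uterine epithelium, endometrial stroma, myometrium and endothelium were present in each library by their markers, whose summed levels were 962 to 1952, 10990 to 19705, 9948 to 15463 and 737 to 1099 CPM. The summed markers of leukocytes (371 to 568 CPM), mesothelium (164 to 280 CPM) and ovary and oviduct (71.7 to 294 CPM) overlapped between the groups. Young-SP replicate 1 differed from the other young-SP libraries in its gland markers, which summed to 616 CPM against 82.9 and 69.8 CPM, with 4140 and 3024 CPM in the aged-SP libraries. Without it edgeR called 578 genes in place of 25, so the value without it is given for the members that its removal moved across an unadjusted p of 0.05 and for the members and partner genes that its removal brought to a call. Without it 11 of 60 tested members were under that p (18.3%, against 22.7% of all tested genes), and 9 of these were also under it with all libraries.

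By the quasi-likelihood test of edgeR, with p-values adjusted by Benjamini-Hochberg over 17013 tested genes, 0 of the 60 tested cadherins and protocadherins were called, that is, had both an adjusted p under 0.05 and a log2 fold change beyond 1 in either direction, where 0.147% of all tested genes were called. Their adjusted p lay between 0.116 and 0.999. DESeq2, which called 3.6% of the genes it gave an adjusted p, called 2 of the 65 members to which it gave one, Cdh16 and Cdh10. At an unadjusted p under 0.05 stood 11 of the 60 (18.3%), against 19% of all tested genes, so in this fit the family as a whole lay near the background. Of the 11, 6 were higher in aged-SP uteri and 5 were lower, against 9.62% and 9.36% of all tested genes in the same directions. With 1 young-SP library left out, the share of members at that p moved to either side of that of all tested genes. It was 18.3% against 22.7% without replicate 1, 13.3% against 12.6% without replicate 2 and 10% against 14.8% without replicate 4. The groups did not overlap for 18 of the 60 (30.0%), against 38.8% of all tested genes. The median log2 fold change, aged-SP over young-SP, was -0.08 over the family and 0.01 over all tested genes. SE below is the standard error of a log2 fold change.

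The 11 were spread unevenly over the classes. Of the 13 tested cadherins 6 stood under an unadjusted p of 0.05 (46.2%), as did 2 of 7 non-clustered protocadherins (28.6%) and 3 of 40 clustered ones (7.5%), against 19% of all tested genes. Type I cadherins had 2 higher of 4 tested and a median log2 fold change of 0.41, while type II cadherins had 2 lower of 6 tested and a median of -0.17. The remaining cadherins had 2 higher of 3 tested, and 1 of these was Cdh16. These classes are small and were set beside the background without a test of the difference between them. The counts include Cdh16 and Pcdhga12, which passed the filter on low counts only through the aged-SP libraries. Both had to differ between the groups to be tested at all. Over all 17013 tested genes, 482 passed the filter through only 1 of the 2 groups.

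**Figure D1:**
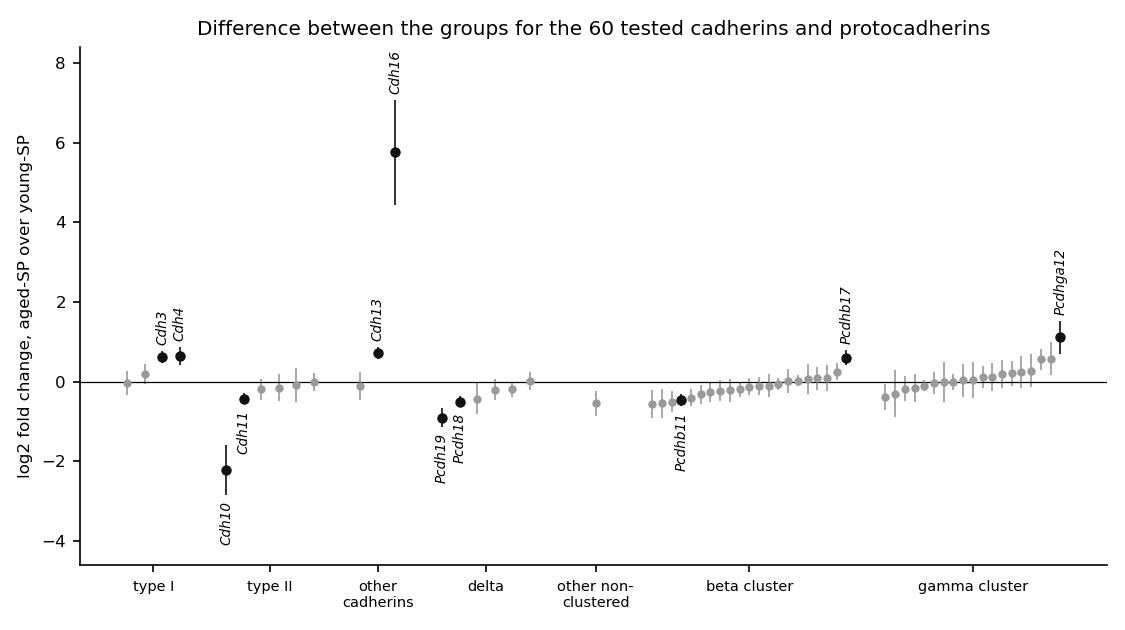
Log2 fold change of the aged-SP over the young-SP group (vertical axis) for the 60 tested genes, sorted within each class along the horizontal axis, with bars of 1 standard error. Black points are the 11 genes with an unadjusted p under 0.05, of which 0 passed the adjusted threshold, and Cdh16 (5.75) and Cdh10 (-2.22) lie farthest from 0.

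The uterus carried 3 abundant cadherins. Mean FPKM over the 5 libraries was 59.4 for Cdh11, 44.2 for Cdh1 and 34.2 for Cdh5, and these 3 made up 85.3% to 91.5% of the summed FPKM of all cadherins in a library. Cdh11 was the highest cadherin in 4 of 5 libraries and Cdh1 in aged-SP replicate 4. The next genes of the non-clustered kind were Pcdh7 (11.3), Pcdh18 (9.15), Pcdh1 (5.15), Cdh3 (3.68), Cdh13 (3.37) and Cdh24 (3.04 FPKM). Cadherins together held 64.3% to 70.2% of the FPKM of the whole family.

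**Figure D2:**
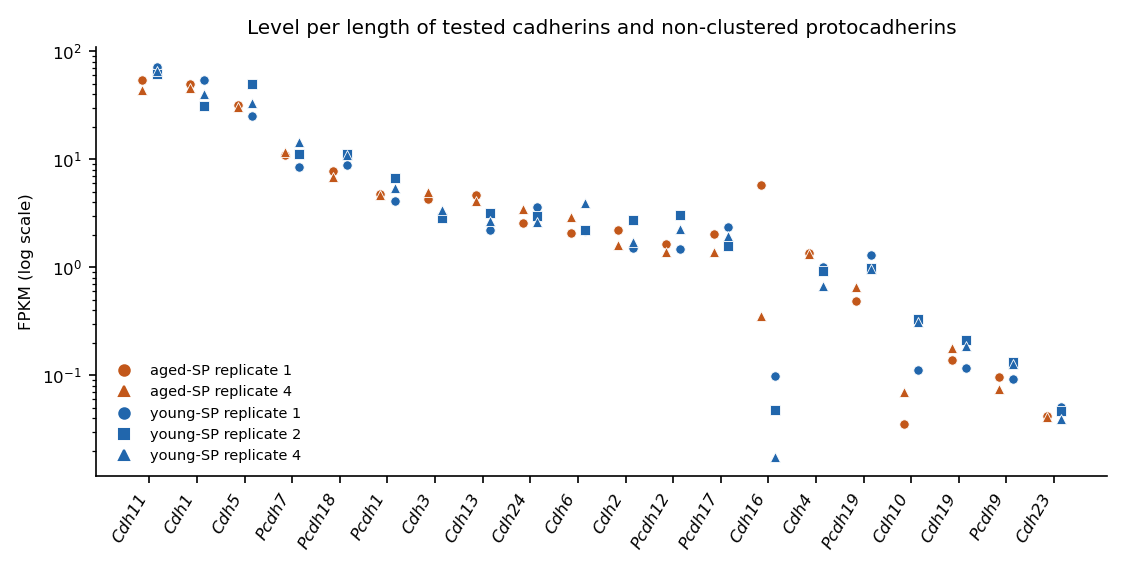
FPKM (log axis) of the 20 tested cadherins and non-clustered protocadherins, ordered by their mean, with 1 point per library. Cdh11, Cdh1 and Cdh5 lead with means of 59.4, 44.2 and 34.2, and the 5 points of Cdh16 span 0.0175 to 5.72.

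Among type I cadherins, E-cadherin (Cdh1, chromosome 8, 106603351 to 106670246) is the main cadherin of the uterine epithelium. Its level was 229 and 210 CPM in aged-SP replicates 1 and 4, and 249, 141 and 186 CPM in young-SP replicates 1, 2 and 4. The groups overlapped, with young-SP replicate 1 above both aged-SP libraries, and the log2 fold change was 0.19 (SE 0.24, adjusted p = 0.700 in edgeR's quasi-likelihood test). The 12 epithelial markers summed to 1565 and 1550 CPM in the aged-SP and 1952, 962 and 1162 CPM in the young-SP libraries, which is the same order of libraries as for Cdh1. Without young-SP replicate 1, the highest in both, the log2 fold change of Cdh1 was 0.41 (adjusted p = 0.232 in edgeR). Cdh1 was 14.1% ± 0.727 (SD, n = 2) of that sum in the aged-SP and 14.5% ± 1.65 (SD, n = 3) in the young-SP group. In whole uterus, more or fewer cells of a type cannot be told apart from more or less RNA per cell.

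P-cadherin (Cdh3) lies beside Cdh1 on chromosome 8 (106510891 to 106557297) and is typical of basal and placental epithelia. Its level was 18.9 and 21.9 CPM in the aged-SP libraries and 12.7, 12.2 and 15.02 CPM in young-SP replicates 1, 2 and 4. Every aged-SP library was above every young-SP library, a log2 fold change of 0.62 (SE 0.16, adjusted p = 0.142 in edgeR's quasi-likelihood test). DESeq2 gave it an adjusted p of 0.0485, with a fold change below the limit for a call. Relative to the epithelial markers the groups overlapped, since Cdh3 was 1.21% and 1.42% of their sum in the aged-SP and 0.651%, 1.27% and 1.29% in the young-SP libraries. The markers of vagina and cervix, other tissues that hold basal epithelium, summed to 13.2 and 11.8 CPM in the aged-SP and 8.69, 7.09 and 10.01 CPM in the young-SP libraries. Of the 8 markers 3 were tested, and Sbsn, the most abundant of the 8 in each library, had a log2 fold change of 0.73. For Dsg3 it was 0.88, with 63 and 7 counts in the aged-SP and 36, 7 and 12 in the young-SP libraries. For Trp63 it was -0.31, the other way. The keratins Krt14, Krt6a, Krt13, Krt4 and Krt1 had 0 to 9 counts in a library and were not tested. The part of vagina or cervix in the level of Cdh3 was not tested.

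R-cadherin (Cdh4), known from retina and muscle, was also higher in the aged-SP libraries. It stood at 9.91 and 9.66 CPM in the aged-SP and at 7.32, 6.56 and 4.87 CPM in the young-SP libraries, again without overlap. The log2 fold change was 0.65 (SE 0.23, adjusted p = 0.222 in edgeR). N-cadherin (Cdh2), by contrast, had 18.2 and 13.0 CPM in the aged-SP and 12.3, 21.8 and 14.0 CPM in the young-SP libraries, with a log2 fold change of -0.04 (SE 0.30). M-cadherin (Cdh15), the cadherin of muscle precursors, had 2 to 7 counts in a library and was not tested.

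The most abundant type II cadherin, Cdh11 (chromosome 8, 102632095 to 102785642), marks stromal and other mesenchymal cells. Its level was 484 and 395 CPM in the aged-SP and 649, 535 and 586 CPM in the young-SP libraries. Both aged-SP libraries lay below the lowest young-SP library, a log2 fold change of -0.42 (SE 0.14, adjusted p = 0.201 in edgeR's quasi-likelihood test). Without young-SP replicate 1 it was -0.36, and its unadjusted p was no longer under 0.05. Summed stromal markers were lower in the same libraries. The 12 of them came to 10990 and 12321 CPM in the aged-SP and 15292, 19547 and 19705 CPM in the young-SP libraries. Of the 12, 6 were lower and 1 higher at an unadjusted p under 0.05, where 9.36% and 9.62% of all tested genes were. Vim, Hoxa10, Nr2f2, Dcn and Lum were under that p in neither direction. Col1a1 and Col3a1, both lower, made up most of the summed level in each library. Cdh11 was 4.41% and 3.21% of that sum in the aged-SP and 4.24%, 2.74% and 2.97% in the young-SP libraries, so that relative to the stromal markers the groups overlapped. The part of the stromal share in the level of Cdh11 was not tested.

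VE-cadherin (Cdh5), the adhesion protein of endothelial junctions, was close to its markers as well. Its level was 137 and 128 CPM in the aged-SP and 107, 203 and 142 CPM in the young-SP libraries, with a log2 fold change of -0.19 (SE 0.27, adjusted p = 0.742 in edgeR). Young-SP replicate 2 was the highest and young-SP replicate 1 the lowest, and the summed endothelial markers, at 1099 and 737 CPM, had their highest and lowest value in the same libraries. Cdh5 was 15.9% ± 1.82 (SD, n = 2) of the endothelial sum in the aged-SP and 16.2% ± 2.02 (SD, n = 3) in the young-SP group.

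**Figure D3:**
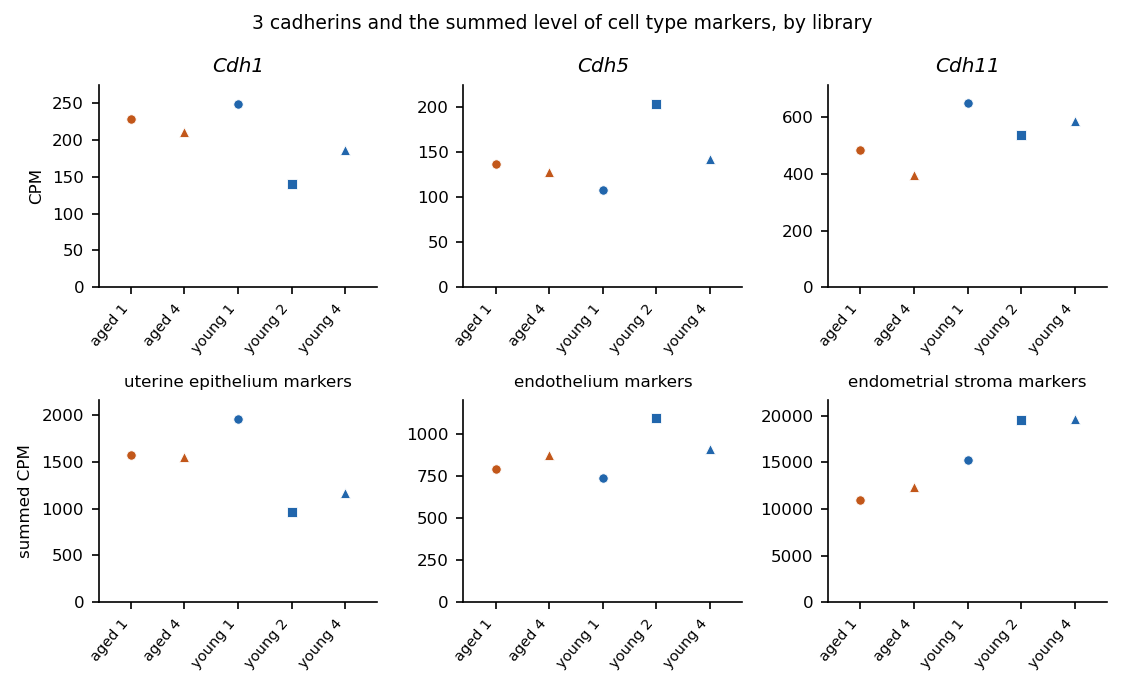
Level of Cdh1, Cdh5 and Cdh11 (upper row, CPM) and summed CPM of the epithelial, endothelial and stromal marker lists (lower row) in each of the 5 libraries, with axes that start at 0. Cdh1 has the order of the epithelial markers over all 5 libraries, and Cdh5 peaks with the endothelial markers in young-SP replicate 2. Cdh11 and the summed stromal markers, mostly Col1a1 and Col3a1, are both lower in the 2 aged-SP libraries.

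Cdh10, a type II cadherin known mainly from brain, had the most negative log2 fold change of the 60 tested genes. It had 6 and 11 counts in the aged-SP and 18, 55 and 47 counts in young-SP replicates 1, 2 and 4, or 0.363 and 0.704 against 1.13, 3.25 and 3.14 CPM. The groups did not overlap, but young-SP replicate 1 lay nearer to the aged-SP libraries than to the other young-SP ones. The log2 fold change was -2.22 (SE 0.63, adjusted p = 0.165 in edgeR's quasi-likelihood test). DESeq2 called it with an adjusted p of 0.0382, and edgeR called it once young-SP replicate 1 was left out (log2 fold change -2.59, adjusted p = 0.0397). Counts of this size leave each single library imprecise.

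The other 4 tested type II cadherins overlapped between the groups. Cdh24 had 9.07 and 12.0 CPM in the aged-SP and 12.7, 10.1 and 9.15 CPM in the young-SP libraries (log2 fold change -0.01). K-cadherin (Cdh6) had a log2 fold change of -0.15 with an SE of 0.33. Cdh19, a cadherin of Schwann cells, had 8 to 15 counts in a library and a log2 fold change of -0.09, and markers of Schwann cells and neurons summed to 57.4 and 84.0 CPM in the aged-SP and 38.2 to 65.1 CPM in the young-SP libraries. Cdh7, Cdh9, Cdh12, Cdh20 and Cdh22 had 0 to 5 counts in a library and were not tested.

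T-cadherin (Cdh13, chromosome 8, 118283733 to 119324921) lacks an inner tail, is held in the membrane by a lipid anchor and binds adiponectin on endothelium and smooth muscle. Its level was 53.3 and 45.9 CPM in the aged-SP and 25.2, 34.7 and 30.4 CPM in the young-SP libraries. The lower aged-SP library lay above the highest young-SP one, a log2 fold change of 0.72 (SE 0.16), and its adjusted p of 0.116 in edgeR was the smallest in the family. DESeq2 gave it an adjusted p of 0.0118, but its fold change was below the limit for a call. It was higher in the aged-SP group with an unadjusted p under 0.05 in each of the 12 alternative fits, with log2 fold changes between 0.60 and 0.84.

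Markers of blood vessels and of muscle overlapped between the groups, unlike Cdh13. Endothelial markers summed to 796 and 878 CPM in the aged-SP and 737 to 1099 CPM in the young-SP libraries, and myometrial markers to 9948 and 12662 against 10314 to 15463 CPM. The 5 markers of lymphatic endothelium, in contrast, were all higher in the aged-SP group with an unadjusted p under 0.05, where 9.62% of all tested genes were. They summed to 202 and 215 CPM in the aged-SP and 91.3, 138 and 124 CPM in the young-SP libraries, and 0 of them were called. The part of lymphatic vessels in the level of Cdh13 was not tested.

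Cdh16, the kidney-specific cadherin, is best known from kidney tubule and thyroid epithelium. It had 363 and 21 counts in aged-SP replicates 1 and 4 and 6, 3 and 1 counts in young-SP replicates 1, 2 and 4, or 21.9 and 1.34 against 0.375, 0.177 and 0.0668 CPM. All the libraries were low but aged-SP replicate 1. The log2 fold change of 5.75 (SE 1.31, adjusted p = 0.119 in edgeR's quasi-likelihood test) was 2.64 without that library. Although DESeq2 called it with an adjusted p of 1.72e-05, Cdh16 passed the filter on low counts only through the aged-SP libraries, so it had to differ between the groups to be tested at all.

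The summed uterine gland markers had the same order of libraries as Cdh16, but single markers differed. The 8 of them summed to 4140 and 3024 CPM in the aged-SP and 616, 82.9 and 69.8 CPM in the young-SP libraries. Prss28, a serine protease of the glands, had 1446 and 764 against 90.7, 0.355 and 0.267 CPM. Prss29 had 2458 and 2137 against 385, 2.96 and 11.5 CPM, and with Prss28 it made up most of the aged-SP sums. Spink1 had 153 and 12.2 against 11.1, 10.8 and 7.74 CPM, in the order of Cdh16. So did Sox9, with 34.3 and 22.0 against 21.3, 9.10 and 7.94 CPM. Lif had 6.41 and 2.62 against 3.63, 2.25 and 2.40 CPM. Cxcl15 went the other way, with 2.90 and 1.92 against 8.69, 20.2 and 8.14 CPM. Foxa2 had a log2 fold change of -0.02, and Aldh1a1 had 27.7 and 72.2 against 87.1, 23.1 and 20.2 CPM. The part of the glands in the level of Cdh16 was not tested.

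Kidney tubule markers were looked up for Cdh16 after its values had been seen. Umod, which encodes uromodulin, also had the same order of libraries with ties at 0, namely 103 and 9 counts in the aged-SP and 1, 0 and 0 counts in the young-SP libraries. The tubule transporter Slc12a1 had 3 and 0 against 0, 2 and 0 counts, and the collecting duct channel Aqp2 had 0 and 2 against 2, 0 and 0 counts. The 8 listed genes of that list summed to 141 and 115 CPM in the aged-SP and 704, 761 and 1113 CPM in the young-SP libraries, with Calb1 as the most abundant gene in each library. Pax8, a transcription factor of kidney, thyroid and reproductive tract epithelium, stood at 54.8 and 27.4 CPM in the aged-SP and 25.4, 14.4 and 16.96 CPM in the young-SP libraries. The part of kidney or other tissue in the level of Cdh16 was not tested. Cdh23, which joins with Pcdh15 in the tip links of inner ear hair cells, had 10 to 14 counts in a library and a log2 fold change of -0.11. Cdh17 and Cdh26 had 0 to 8 counts and were not tested.

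**Figure D4:**
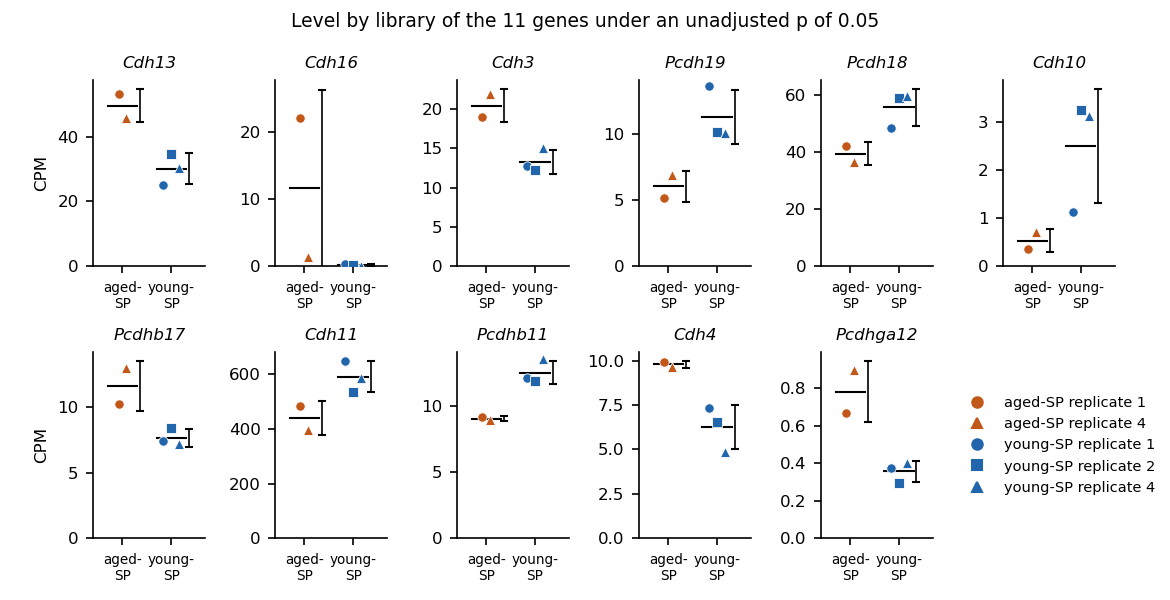
CPM by library of the 11 genes with an unadjusted p under 0.05, each on its own axis from 0, with the group mean (line) and 1 SD (bar, cut off at 0 for Cdh16). The groups do not overlap in any of the 11 panels, and the aged-SP mean of Cdh16 rests on replicate 1 (21.9 CPM against 1.34 CPM in replicate 4).

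Delta protocadherins, which sit apart from the clusters and bear conserved motifs in their inner tails, had 2 of 6 tested members under an unadjusted p of 0.05, both lower in the aged-SP group. Pcdh19, on the X chromosome, acts together with N-cadherin in neurons. It had 5.20 and 6.91 CPM in the aged-SP and 13.7, 10.2 and 10.1 CPM in the young-SP libraries. With both aged-SP libraries below all young-SP ones, the log2 fold change was -0.90 (SE 0.24, adjusted p = 0.149 in edgeR). DESeq2's adjusted p for it was 0.0304, with the fold change short of the limit for a call.

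Pcdh18 was the more abundant of the pair, with a mean FPKM of 9.15 against 0.880 for Pcdh19. Its level was 42.2 and 36.6 CPM in the aged-SP and 48.2, 58.9 and 59.7 CPM in the young-SP libraries, a log2 fold change of -0.50 (SE 0.14, adjusted p = 0.155 in edgeR's quasi-likelihood test) without overlap. Relative to the summed stromal markers it was 0.340% ± 0.0615 (SD, n = 2) in the aged-SP and 0.306% ± 0.00741 (SD, n = 3) in the young-SP group. Most of that sum was Col1a1 and Col3a1. The part of the stromal share in the level of Pcdh18 was not tested. The log2 fold changes of Pcdh19 and Pcdh18 stayed negative in all 12 alternative fits.

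Promoter sequence is shown for 3 of the 11 genes, each with an entry in the RefSeq table. An entry was found for 20 of the 87 genes. Clustered protocadherins were left out of this display by rule, so their absence here does not mean that they lack an entry. The windows are the 250 bases before the RefSeq start on GRCm38.p6, 5′ to 3′ on the strand of the gene. Capitals mark the CCAAT box (CCAAT or its reverse complement ATTGG) and the GC box (GGGCGG or CCGCCC), and the search also took in the TATA box (TATAAA or TTTATA) and the E2 box to which Snail and Zeb proteins bind (CACCTG or CAGGTG). The Pcdh18 window is chr3:49757317-49757566 (minus strand), the Pcdh19 window chrX:133688994-133689243 (minus strand) and the Cdh10 window chr15:18820079-18820328 (plus strand).
Pcdh18: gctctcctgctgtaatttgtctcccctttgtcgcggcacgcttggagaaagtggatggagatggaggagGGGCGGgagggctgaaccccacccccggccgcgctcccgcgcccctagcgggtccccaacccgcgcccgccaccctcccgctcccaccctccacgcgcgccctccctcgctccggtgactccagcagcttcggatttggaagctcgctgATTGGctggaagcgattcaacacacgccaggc
Pcdh19: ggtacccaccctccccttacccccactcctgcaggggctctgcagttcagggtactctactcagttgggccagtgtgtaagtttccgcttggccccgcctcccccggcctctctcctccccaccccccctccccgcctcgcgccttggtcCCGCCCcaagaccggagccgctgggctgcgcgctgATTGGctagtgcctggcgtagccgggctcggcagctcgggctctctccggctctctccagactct
Cdh10: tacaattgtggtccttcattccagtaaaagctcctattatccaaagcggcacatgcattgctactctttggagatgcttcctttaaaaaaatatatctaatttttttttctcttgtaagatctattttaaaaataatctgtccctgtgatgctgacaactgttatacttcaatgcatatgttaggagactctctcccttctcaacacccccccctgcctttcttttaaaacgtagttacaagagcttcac
Both delta genes have an ATTGG, 32 bases before the start in Pcdh18 and 65 in Pcdh19, and a GC box 181 and 100 bases before it. Both motifs occur together in 11% of the 32851 promoters of the table, a CCAAT box in 33.8% and a GC box in 32.7%. The dinucleotide CG occurs 23 times in the Pcdh18 and 16 times in the Pcdh19 window, but 2 times in that of Cdh10, where the median promoter has 6 (quartiles 2 and 16). In the Cdh10 window, which begins from a start 1382 bases inside the deposited gene, the letters of the 4 motifs do not occur. A TATA box was found in 12.4% and an E2 box in 17.2% of all promoters, and in 0 of these 3.

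Pcdh7, the most abundant protocadherin of the uterus, overlapped between the groups, with 118 and 124 CPM in the aged-SP and 90.01, 116 and 154 CPM in the young-SP libraries (log2 fold change 0.01, SE 0.23). In GENCODE M21, 21.1% of its exon bases also belong to a gene on the other strand, and whether the counting used strand was not given in the sources used here. Pcdh1 had 42.4 and 41.1 CPM in the aged-SP and 36.7, 58.1 and 48.4 CPM in the young-SP libraries, which is the order of libraries seen for Cdh5. It was 4.998% ± 0.458 (SD, n = 2) of the summed endothelial markers in the aged-SP and 5.19% ± 0.185 (SD, n = 3) in the young-SP group. Pcdh12, an endothelial protocadherin also called VE-cadherin-2, had 10.2 and 8.38 CPM in the aged-SP and 8.94, 17.9 and 13.8 CPM in the young-SP libraries, again with its highest value in young-SP replicate 2. Its log2 fold change was -0.55 (SE 0.32, adjusted p = 0.411 in edgeR). Without young-SP replicate 1 both genes came under an unadjusted p of 0.05, at -0.78 (edgeR, adjusted p = 0.118) for Pcdh12 and -0.36 (edgeR, adjusted p = 0.170) for Pcdh1 on the log2 scale.

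Other delta genes with a test were Pcdh17 (log2 fold change -0.20) and Pcdh9 (log2 fold change -0.42, 8 to 15 counts in a library). Not tested were Pcdh8, Pcdh10, Pcdh15 and Pcdh20, the last with 37 counts in young-SP replicate 1 and 0 to 8 in each of the other libraries.

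Clustered protocadherins lie side by side on chromosome 18 in the order alpha, beta, gamma. The summed level varied little between libraries for the beta and gamma genes, but not for the scarce alpha genes. All 55 genes together had 191 and 203 CPM in the aged-SP and 188, 213 and 215 CPM in the young-SP libraries, a ratio of 0.960 with overlap, and the coefficient of variation over the 5 libraries was 6.18%. The 22 beta genes summed to a mean of 137 CPM in the aged-SP (SD 7.71, n = 2) and 147 CPM in the young-SP uteri (SD 10.99, n = 3). For the 21 gamma genes the means were 57.2 CPM (SD 0.00454) and 56.4 CPM (SD 4.37), and the very small first SD comes from 2 libraries only. The 12 alpha genes had 16 to 56 counts in all per library and 0 passed the filter, with single genes at 0 to 19 counts. The alpha sum was 1.75 and 3.58 CPM in the aged-SP and 1.001, 2.36 and 1.47 CPM in the young-SP libraries, with overlap, and its coefficient of variation over the 5 libraries was 49.0%. Its ratio of 1.66 lay between 1.09 (without aged-SP replicate 4) and 2.22 (without aged-SP replicate 1) with 1 library left out.

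Within the beta cluster 1 gene stood out in level. Pcdhb9 had a mean FPKM of 8.03 and was the highest beta gene in 5 of 5 libraries, with 19.4% to 26.0% of the summed beta FPKM. It had 21.2 and 25.5 CPM in the aged-SP and 22.1, 31.3 and 22.6 CPM in the young-SP libraries (log2 fold change -0.12). Pcdhb7 followed with 3.00, Pcdhb20 with 2.94 and Pcdhb11 with 2.52 FPKM, and 12 of the 22 beta genes reached a mean FPKM of 1. Pcdhb20 hardly varied, at 10.4 and 10.8 CPM in the aged-SP and 10.2, 10.5 and 10.5 CPM in the young-SP libraries, while Pcdhb7 ranged from 7.44 to 13.7 CPM within the young-SP group.

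Of the 21 tested beta genes, an unadjusted p under 0.05 was reached by 1 that was higher and 1 that was lower in the aged-SP uteri. Pcdhb17 had 10.2 and 12.9 CPM in the aged-SP and 7.38, 8.39 and 7.14 CPM in the young-SP libraries, a log2 fold change of 0.60 (SE 0.19, adjusted p = 0.188 in edgeR). Pcdhb11 had 9.19 and 8.95 CPM in the aged-SP and 12.1, 11.9 and 13.6 CPM in the young-SP libraries, a log2 fold change of -0.47 (SE 0.15, adjusted p = 0.201 in edgeR). Neither pair of groups overlapped. For 8 of the 21 beta genes (38.1%) the groups did not overlap, 2 higher and 6 lower, which is close to the 38.8% of all tested genes. The median log2 fold change of the beta genes was -0.12, with 14 of 21 below 0.

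Beta genes are alike in sequence, but few of their bases are shared exactly. At most 11.3% of the 50-base stretches of a beta gene occur in transcripts of other genes, except for Pcdhb12, where 64.2% do and where a gene on the other strand covers 63.5% of the exon bases. For Pcdhb17 the share is 3.60% and for Pcdhb11 it is 9.52%. Pcdhb1, the first of the cluster, had 0 to 2 counts in a library and was not tested.

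**Figure D5:**
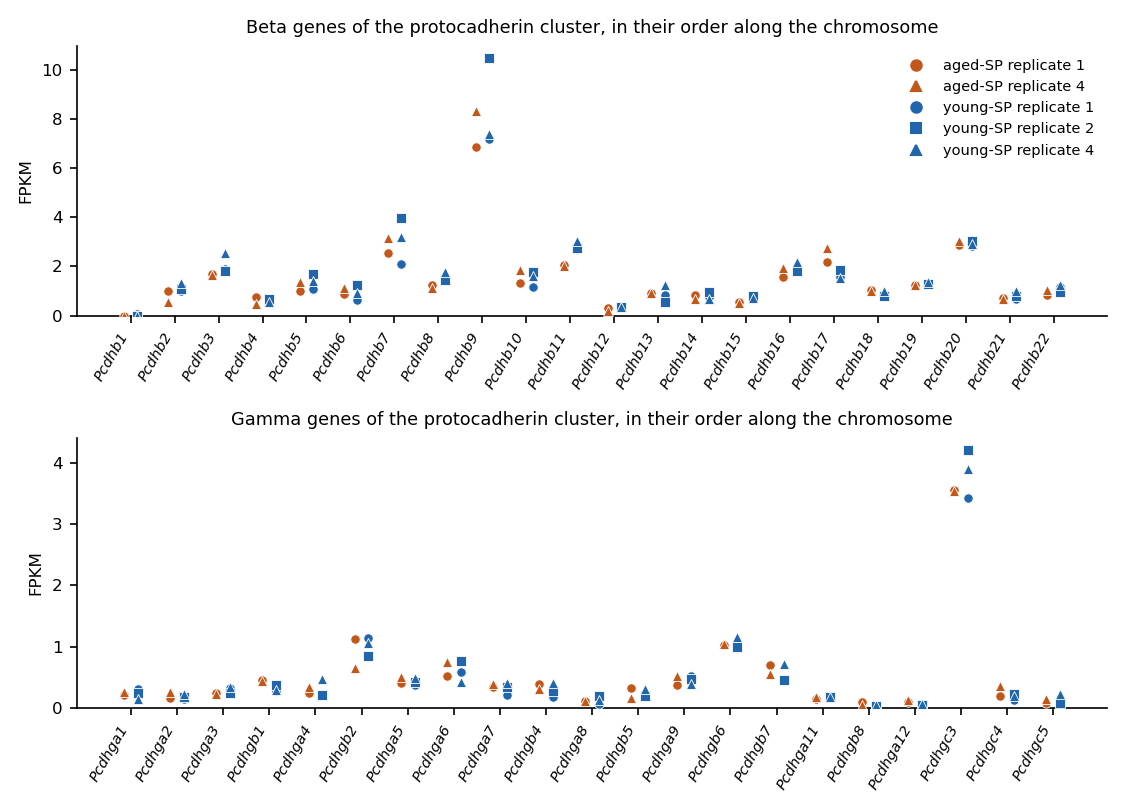
FPKM of the 22 beta (upper panel) and 21 gamma protocadherins (lower panel) in their order along the chromosome, with 1 point per library and axes that start at 0. Pcdhb9 and Pcdhgc3 are the highest of their cluster in each of the 5 libraries, at mean FPKM of 8.03 and 3.73.

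In the gamma cluster Pcdhgc3, a C-type gene near its end, was the highest in 5 of 5 libraries and held 34.1% to 40.4% of the gamma counts. Its level was 19.8 and 19.5 CPM in the aged-SP and 19.0, 22.6 and 21.6 CPM in the young-SP libraries (log2 fold change -0.10, SE 0.13). By kind, the 11 gamma A genes summed to 16.4 against 15.7 CPM, the 7 gamma B genes to 18.8 against 17.6 CPM and the 3 gamma C genes to 22.0 against 23.1 CPM in the aged-SP and young-SP groups. The next genes were Pcdhgb6 (1.04 FPKM), Pcdhgb2 (0.965), Pcdhga6 (0.610) and Pcdhgb7 (0.579), with log2 fold changes of -0.00072, -0.17, 0.12 and 0.21. Pcdhgb6 had 4.84 and 4.92 CPM in the aged-SP and 4.63, 4.55 and 5.47 CPM in the young-SP libraries.

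Of the 19 tested gamma genes, 1, Pcdhga12, had an unadjusted p under 0.05 (5.26%, against 19% of all tested genes), and the groups did not overlap for 2 of the 19 (10.5%, against 38.8%). Pcdhga12 had 11 and 14 counts in the aged-SP and 6, 5 and 6 counts in the young-SP libraries, a log2 fold change of 1.11 (SE 0.41, adjusted p = 0.240 in edgeR's quasi-likelihood test). It passed the filter on low counts only through the aged-SP libraries, and without young-SP replicate 1 its unadjusted p was no longer under 0.05 (log2 fold change 1.14). The other gene without overlap, Pcdhgb1, had 2.66 and 2.56 against 1.56, 2.07 and 1.67 CPM. Between 31.5% and 66.8% of the exon bases of a gamma gene, and between 48.6% and 59.9% of those of an alpha gene, also belong to other genes of the same strand. With genes of the other strand included, the share was 66.9% for Pcdhgc3 and reached 73.6% for Pcdhga11. The lengths behind the FPKM include these shared bases. The counts and FPKM of the alpha and gamma genes therefore depend on how reads in shared exons were counted. So does the part of the cadherins in the FPKM of the family. Pcdhga8 and Pcdhgb8 had 1 to 15 counts in a library and were not tested.

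Partners of the cadherins gave 0 calls in edgeR and 0 in DESeq2 among 48 tested genes of 52 listed, with 6 higher and 2 lower at an unadjusted p under 0.05 (16.7%, against 19% of all tested genes). Plakoglobin (Jup), which binds the tails of cadherins in place of β-catenin and also sits in desmosomes, had 113 and 129 CPM in the aged-SP and 93.4, 82.9 and 84.2 CPM in the young-SP libraries. The groups did not overlap, with a log2 fold change of 0.48 (SE 0.11, adjusted p = 0.114 in edgeR). Pkp4 (log2 fold change 0.63), a relative of p120-catenin, and Plekha7 (log2 fold change 0.75), which binds p120-catenin at the junction, were the other 2 higher of 17 tested catenins and adherens junction partners. β-Catenin (Ctnnb1) itself had a log2 fold change of 0.04 and p120-catenin (Ctnnd1) of -0.02.

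The lists below are to be read against 9.62% of all tested genes higher and 9.36% lower at the same unadjusted p. Desmosomal genes had 2 higher and 0 lower of 8 tested, namely Dsc2 (15.6 and 14.5 against 10.9, 9.16 and 6.74 CPM) and Evpl (15.8 and 16.8 against 11.5, 10.4 and 13.0 CPM). Repressors of E-cadherin had 0 higher and 2 lower of 8 tested. Snai2, which encodes Slug and is a stromal gene as well, had 21.5 and 29.2 CPM in the aged-SP and 35.9, 33.6 and 35.8 CPM in the young-SP libraries, and Tcf3 had 93.1 and 93.2 against 108, 116 and 110 CPM. Their log2 fold changes were -0.47 and -0.26. Regulators of the protocadherin clusters had 1 higher and 0 lower of 15 tested. The 1 was the cohesin loader Nipbl, with 154 and 142 CPM in the aged-SP and 119, 122 and 119 CPM in the young-SP libraries (log2 fold change 0.30, adjusted p = 0.154 in edgeR). Ctcf had a log2 fold change of 0.05.

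Without young-SP replicate 1, edgeR called 3 of the partners, where it called 578 of all 16745 tested genes, against 25 of 17013 with all libraries. For Plekha7 the log2 fold change was then 1.03 (edgeR, adjusted p = 0.0359), and its level was 23.8 and 28.1 CPM in the aged-SP and 21.2, 12.2 and 13.0 CPM in the young-SP libraries. For Arvcf, a relative of p120-catenin, it was -1.69 in place of -1.30 (adjusted p = 0.0183 in edgeR), and for the desmosomal cadherin Dsg2 it was 1.01 in place of 0.63 (adjusted p = 0.0298 in edgeR). In young-SP replicate 1, Arvcf (8.51 CPM) and Dsg2 (46.6 CPM) lay within the range of the aged-SP libraries.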

How the data were processed

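RNA of 5 whole uteri was sequenced, and the deposited count of each gene in each library is unnormalized (HISAT2 2.1.0, Bowtie2 2.2.3 and HTSeq 0.6.0 in the submitters' processing notes). The FPKM deposited by the authors are these counts over gene length and library total, which was checked on 14011 genes. The authors also deposited a mean signal scaled by DESeq2, log2 fold changes and p-values of their own comparison, which were not used. Genes were kept by filterByExpr (10 counts, here 0.621 CPM, in at least 2 libraries), normalized by TMM (0.990 to 1.02) and compared with the two-sided quasi-likelihood test of edgeR 4.0.16 in R 4.3.3, with Benjamini-Hochberg adjustment over 17013 genes. Calls needed an adjusted p under 0.05 together with a log2 fold change beyond 1 in either direction. The script was tested on simulated data. Members, classes, partner lists and marker lists were chosen with earlier results of these data known. Named were the most abundant tested members of each class (3, or 5 for beta and gamma), those with an unadjusted p under 0.05, Cdh1, Cdh2, Cdh3, Cdh5, Cdh11 and DESeq2 calls, and of each partner list at most 4 genes under that p. Other genes were named after their values were seen. Gene positions are the deposited ones, and 86 of 87 match GENCODE M21 on GRCm38. Alternatives were DESeq2 1.42.0, limma-voom (limma 3.58.1), other scalings and filters, a replicate block and each library left out. Genes with 0 counts could hold up to 3 counts, 0.177 to 0.200 CPM, which covers counting error only.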

Additional observations from a re-analysis of the deposited data

How the results depend on the processing

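The 11 genes with an unadjusted p under 0.05 kept their direction in every alternative fit that gave a value, and 17 of the 27 named cadherins and protocadherins did. Over all genes, 25 calls became 632 with DESeq2, 203 without a filter on low counts, 2 with the replicate block and 1 to 578 with 1 library left out (1 without aged-SP replicate 1, 578 without young-SP replicate 1). Calls among cadherins and protocadherins went from 0 to 2 with DESeq2 (Cdh16, Cdh10) and lay between 0 and 1 with 1 library left out, and those among partners between 0 and 3, the 3 (Arvcf, Plekha7 and Dsg2) without young-SP replicate 1. Members under an unadjusted p of 0.05 numbered 7 with the replicate block (11.7%, against 14.8% of all tested genes). With 1 young-SP library left out they numbered 11 without replicate 1 (18.3% against 22.7%), 8 without replicate 2 (13.3% against 12.6%) and 6 without replicate 4 (10% against 14.8%). Members without overlap numbered 23 to 36 with 1 library left out (38.3% to 54.5%, against 46.5% to 63.6% of all tested genes), where smaller groups overlap less often by construction. The labels link same-numbered libraries by a number only. Their deviations from the group mean correlated at 0.152 and 0.136 over 2 pairs. With 2 aged-SP libraries the deviations of one mirror those of the other, so these values cannot show whether libraries were paired. The block is therefore given here only.

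Of 321 alternative values of named genes and summaries, 25 reversed in sign, all of them log2 fold changes that were no call. With the replicate block Cdh2 stood at 0.23, Cdh5 at 0.10, Pcdhb7 at 0.13 and Pcdhb9 at 0.05. By library size alone Pcdh7 stood at -0.0025. For Pcdhgb6, the limit of 10 counts in every sample gave 0.00072 and limma-voom 0.0069. With 1 library left out the log2 fold change ranged from -0.30 to 0.25 for Cdh2, -0.23 to 0.17 for Cdh24, -0.39 to 0.09 for Cdh5, -0.17 to 0.22 for Pcdh7, -0.00022 to 0.05 for Pcdhb20, -0.32 to 0.11 for Pcdhb7, -0.26 to 0.06 for Pcdhb9, -0.17 to 0.36 for Pcdhga6, -0.63 to 0.17 for Pcdhgb2 and -0.05 to 0.08 for Pcdhgb6. The cause was not tested. Where an aged-SP library is left out, the lone one is assumed to vary like the others.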
